A study of Mus musculus with 12 samples.

Results

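The miR-200 family is a set of 5 related microRNAs, mmu-miR-200a, mmu-miR-200b, mmu-miR-200c, mmu-miR-141 and mmu-miR-429, made from 2 genomic clusters. Its 5 main strands and the star strands of 4 of them, the less used arm of the same hairpin, gave 9 entries among the 611 mouse miRNAs on the array. Members were matched by their array names, and the family was selected on results of these data already known: its signal in tunicamycin-treated knockout cells and nowhere else. The levels across genotype and treatment are therefore a description and carry no test.

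Embryonic fibroblasts of mice of C57BL/6 background were profiled for mature miRNAs on 12 single-colour (Cy3) arrays, 100 ng of total RNA each, in 6 groups of 2. Cells were wild type for ATF6b or deficient in it (knockout), and either received no drug or were exposed to tunicamycin at 2 ug/mL, for 12 h or 24 h. ATF6b is a membrane-bound transcription factor of the endoplasmic reticulum stress response, and tunicamycin provokes that stress by blocking N-linked glycosylation. The question of the series is which miRNA responses to tunicamycin need ATF6b. Replicates of a group were run as separate experiments, per the design text. How the knockout allele was made, and how many embryos or clones the cells came from, are not given in the sources used here.

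In epithelia the miR-200 family is known for binding the messenger RNAs of Zeb1 and Zeb2, repressors of E-cadherin and other epithelial genes. The Zeb proteins in turn bind and repress the promoters of the miR-200 clusters, so the family and its targets form a mutually inhibitory loop in transitions between epithelial and mesenchymal states. Fibroblasts, as mesenchymal cells, are known for little miR-200 and much Zeb.

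The mature sequences are shown because the family falls into seed groups that cut across its genomic clusters. The seed, bases 2 to 8 counted from the 5′ end, is the stretch that chiefly selects target messages, and it is printed in capitals. Sequences and positions are from RefSeq on build GRCm38.p6, which lists a 3p and a 5p arm for all 5 members. The array names give no arm. Main and star names were taken to be the 3p and 5p arms, which could not be checked without probe sequences.
mmu-miR-200b: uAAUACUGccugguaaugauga
mmu-miR-200c: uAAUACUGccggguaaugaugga
mmu-miR-429: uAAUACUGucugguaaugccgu
mmu-miR-200a: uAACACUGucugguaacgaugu
mmu-miR-141: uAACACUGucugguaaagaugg
The first 3 shared the seed AAUACUG and the last 2 the seed AACACUG. The seeds differ at 1 base, C4U from the second to the first. Neither seed occurred in any other of the 1679 mature mouse miRNAs listed. Outside the seed, miR-200b and miR-200c differ by U11G and A22G, with miR-200c 1 base longer, and miR-200a and miR-141 differ by C17A and U22G. miR-429 stands further off, with 4 differences from miR-200b and 5 from miR-200c.

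In the genome, miR-429, miR-200a and miR-200b come from 3 hairpins within 1846 bp at chr4:156053905-156055750, on the minus strand, where the annotation also places the long non-coding RNA gene Gm13648. miR-141 and miR-200c come from 2 hairpins within 477 bp at chr6:124717914-124718390, also on the minus strand, overlapping no other annotated gene and lying between Phb2 and Ptpn6. Each cluster thus holds members of both seed groups.

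miR-200c, miR-141 and miR-200b were detected on all 4 arrays of tunicamycin-treated knockout cells and on none of the other 8. Among the 611 mouse miRNAs these were the only 3 with that pattern of detection calls, and 13 were detected on exactly 4 arrays of any kind. miR-200a was detected on replicate 1 at each time in treated knockout cells. miR-429 and the 4 star strands were detected on no array. Detection is the scanner software's own call for a miRNA.

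**Figure D1:**
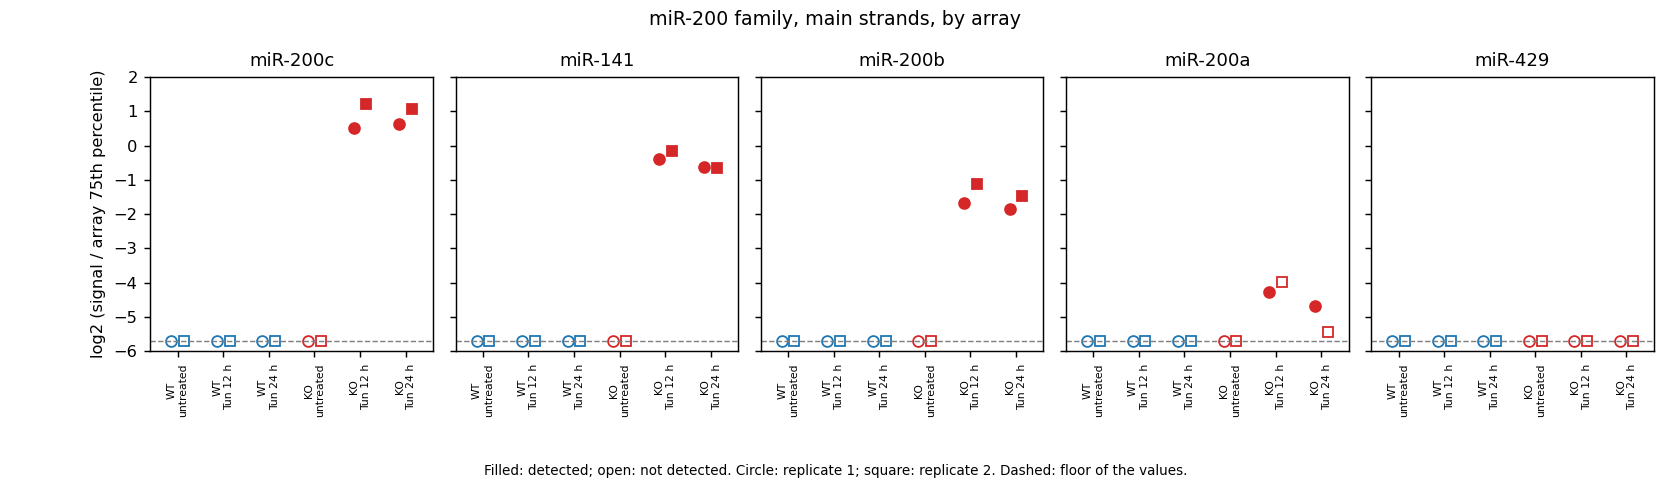
Level of each main strand by array: the x axis gives the 6 groups (WT, wild type; KO, knockout; Tun, tunicamycin) and the y axis the log2 of the summed signal over the array's 75th percentile, with 1 point an array and no error bars. miR-200c, miR-141 and miR-200b stand clear of the floor of -5.71 in treated knockout cells alone, miR-200a lies between -5.44 and -4.00 there, and miR-429 is at the floor on all 12 arrays.

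miR-200c, of the chromosome 6 cluster, had a background-subtracted signal, summed over its probes, of 641 and 565 in knockout cells at 12 h of tunicamycin (replicates 1 and 2) and of 642 and 439 at 24 h. On the other 8 arrays the same sum lay between -11.8 and -3.19, values below 0 being spots dimmer than their local background. The treated knockout arrays and the rest did not overlap. The share of all mouse miRNAs with no such overlap was not counted, so here and for the members below it is given without a background. Divided by each array's 75th percentile, and on the log2 scale, the level was 0.52 and 1.20 at 12 h and 0.64 and 1.08 at 24 h. All 80 of its spots on those arrays were well above background by the software's call, against 1 of 160 on the rest.

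miR-141, its neighbour with the other seed, gave a summed signal of 338 and 220 at 12 h and of 269 and 133 at 24 h in treated knockout cells. Elsewhere it lay between -7.99 and -0.347, again with no overlap. The scaled log2 level was -0.40 and -0.16 at 12 h, and -0.62 and -0.65 at 24 h. Of its spots, 72 of 80 were well above background on the treated knockout arrays and 0 of 160 elsewhere.

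miR-200b, of the chromosome 4 cluster and the seed group of miR-200c, gave 138 and 112 at 12 h and 114 and 74.7 at 24 h. On the other arrays it lay between -4.58 and 0.228. Its scaled log2 level was -1.69 and -1.13 at 12 h, then -1.85 and -1.48 at 24 h. The spots well above background numbered 67 of 80 and 1 of 160. Signal from miR-200c, which differs from it at 2 of the 22 positions they share, on the probes of miR-200b was not tested.

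Because these 3 miRNAs were undetected in the comparison groups, their differences have lower bounds only. The bound sets the mean of the bright group against each dim array's lowest detected level, on the scaled log2 values after the floor. In knockout cells at 12 h, miR-200c was at least 73.9-fold higher than in untreated knockout cells. The corresponding bound was 33.5-fold for miR-141 and 15.3-fold for miR-200b. At 24 h the bounds were 73.7-fold for miR-200c, 26.2-fold for miR-141 and 12.8-fold for miR-200b. Against wild-type cells at the same time, they were 72.0-fold, 32.6-fold and 14.9-fold at 12 h, and 62.6-fold, 22.3-fold and 10.9-fold at 24 h, in the same order of miRNAs. With the normexp background correction the bounds shrank but kept their direction, to a log2 of 2.90 for miR-200c, 2.07 for miR-141 and 1.37 for miR-200b at 12 h against untreated knockout cells, from 6.21, 5.07 and 3.94. Against wild-type cells they shrank further with that correction, to 1.80, 0.97 and 0.27 at 12 h and to 2.51, 1.47 and 0.92 at 24 h, in the same order of miRNAs, so that miR-200b at 12 h came near to no difference. With its dimmer probe alone the bound for miR-200b at 24 h against wild type was 0.82. In untreated cells all 3 were undetected in both genotypes, so no difference between untreated knockout and wild type could be detected at this sensitivity.

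miR-200a, which shares the chromosome 4 cluster with miR-200b and the seed with miR-141, was near the limit of detection. Its summed signal was 22.9 and 15.4 at 12 h and 16.0 and 4.79 at 24 h in treated knockout cells, and between -3.48 and 2.37 on the other 8 arrays. The treated knockout arrays were thus the 4 highest, although only replicate 1 of each time passed the detection call. Of its 20 spots an array, 10, 1, 8 and 0 were well above background, in the same order of arrays. On the scaled log2 scale the level was -4.29 and -4.00 at 12 h, and -4.68 and -5.44 at 24 h, so the undetected replicate 2 at 12 h lay above its detected partner. All but 1 of the 19 bright spots belonged to 1 of its 2 probes. That probe read 4.13 to 19.6 on the 4 arrays, and the other 0.661 to 3.43. Signal from the related miR-141 on these probes was not tested.

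miR-429, the third member of the chromosome 4 cluster, gave 3.45 and 0.837 at 12 h and 4.30 and -1.0 at 24 h in treated knockout cells. The other arrays ran from -3.15 to 9.56, so the groups overlapped. None of its 80 spots on the treated knockout arrays was well above background. Within the chromosome 4 cluster, then, miR-200b was detected on all 4 treated knockout arrays, miR-200a on 2 and miR-429 on none, while both members of the chromosome 6 cluster were detected on all 4. By seed, 2 of the 3 members with AAUACUG and 1 of the 2 with AACACUG were detected on all 4 arrays.

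The star strands of miR-200a, miR-200b, miR-200c and miR-141 had summed signals between -14.6 and 8.33 over the 12 arrays. On the treated knockout arrays, where 3 of the main strands were bright, they did not exceed 2.16, and 1 of their 320 spots was well above background. On the other arrays 6 of 640 were. The array carries no entry for the star strand of miR-429.

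**Figure D2:**
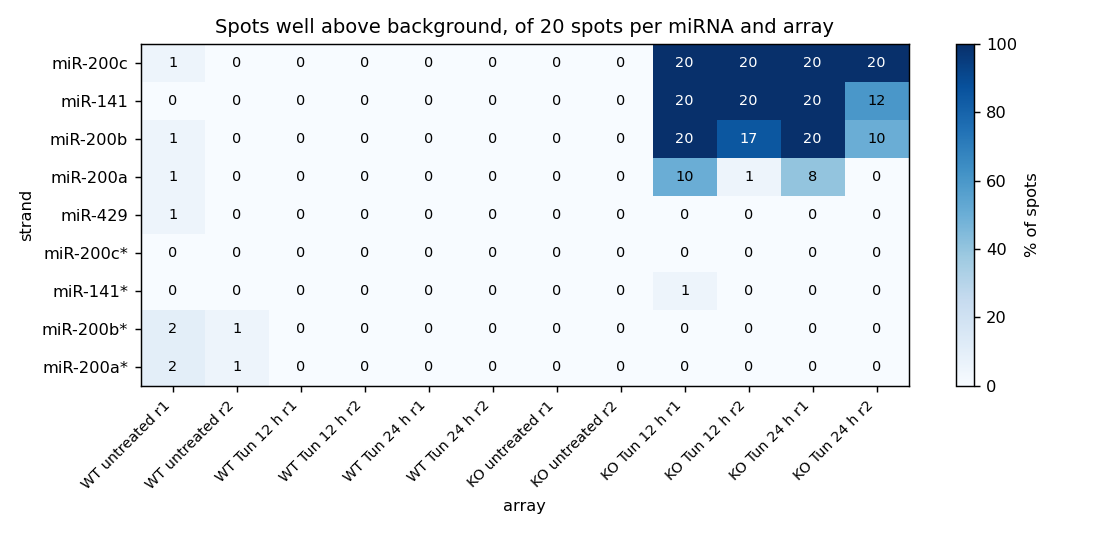
Spots that the scanner software called well above background, as a number (and as a percentage in colour) of the 20 spots each strand has on an array, with strands as rows and arrays as columns. miR-200c, miR-141 and miR-200b reach 10 to 20 spots on treated knockout arrays, and the first wild-type untreated array has single bright spots for several strands.

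Stray bright spots fell mainly on 1 array. Replicate 1 of untreated wild-type cells had 1 spot well above background for each of miR-200a, miR-200b, miR-200c and miR-429, and on that array 3.44% of the spots of undetected miRNAs were so called, against 0.0654% to 0.361% on the other 11. The remaining arrays outside treated knockout cells had no such spot for any main strand.

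Each main strand is read by 2 probes of 10 spots, and for the 3 detected members the probes gave the same pattern. The brighter probe of miR-200c lay between 323 and 460 on the treated knockout arrays and its other probe between 116 and 185, while neither exceeded 0 elsewhere. For miR-141 the probes lay between 118 and 280, and between 14.5 and 57.8. For miR-200b they lay between 62.6 and 115, and between 12.1 and 23.7. The ratio of a miRNA's own probes was 2.40 to 2.79 for miR-200c over these arrays and 4.29 to 5.16 for miR-200b. It was 4.84 to 5.39 on 3 arrays for miR-141 and 8.13 on replicate 2 at 24 h, the dimmest of the 4.

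**Figure D3:**
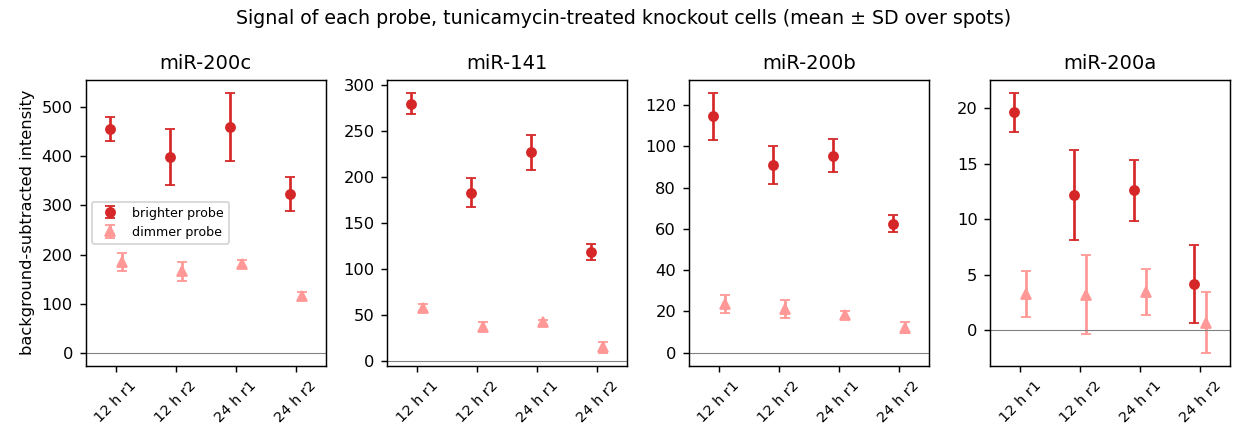
Background-subtracted intensity of each probe (points: mean over spots; bars: SD over spots of 1 array) for 4 main strands on the 4 arrays of treated knockout cells, with a separate linear y axis for each strand. For miR-200c, miR-200b and miR-141 all probes lie above 0 on all 4 arrays, and replicate 2 at 24 h is the dimmest for both probes of each strand.

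A comparison that did not enter the choice of the family was knockout cells at 24 h against 12 h of tunicamycin. None of the detected members passed the test. On the log2 scale miR-200c differed by -0.0035 ± 0.32 (standard error, n = 2 arrays a group, limma, adjusted p = 0.992), with a 95% interval from -0.88 to 0.87. miR-141 differed by -0.35 ± 0.19 (limma, adjusted p = 0.854; interval from -0.85 to 0.15). miR-200b differed by -0.26 ± 0.28 (limma, adjusted p = 0.854; interval from -1.03 to 0.52). These intervals leave room for changes of the order of a log2 unit in miR-200b and, in both directions, for nearly that in miR-200c. Of all 126 miRNAs tested in this comparison 0 were called, 0% (6 had an unadjusted p under 0.05 by limma). With no miRNA called, this fit cannot set the members apart from the other miRNAs or show them to be alike.

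Within runs of arrays, miR-141 differed between 24 h and 12 h by -0.22 in the first and -0.49 in the second, and miR-200b by -0.16 and -0.35. For miR-200c the runs went opposite ways, at 0.12 and -0.12. With the replicate number as a block, 5 of the 126 miRNAs were called (miR-689, miR-1224, miR-197, miR-30c and miR-376a, named after their values were seen), none of them in the family. The members' adjusted p values in that fit were 0.989 for miR-200c, 0.551 for miR-141 and 0.755 for miR-200b (limma). The sign for miR-200b and miR-200c depended on single arrays: without replicate 2 of knockout cells at 12 h the differences were 0.024 and 0.34, and without replicate 1 at 24 h miR-200c differed by 0.22. Taken from the software's total gene signal, miR-200b differed by 0.32 in the opposite direction. On replicate 2 at 24 h that total was 145, where the totals of the 2 probes added up to 49.6. On the other 3 arrays the total equalled the sum of its probes, at 76.9 to 93.3.

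**Figure D4:**
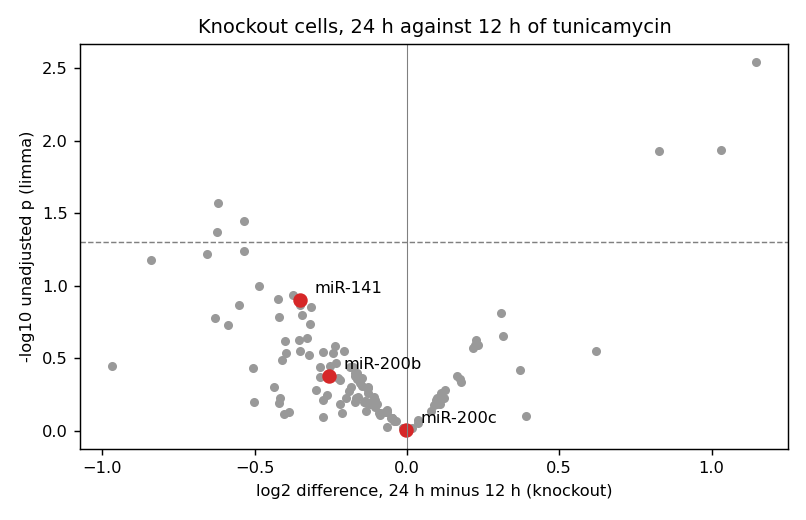
Knockout cells at 24 h against 12 h of tunicamycin: the x axis is the log2 difference and the y axis the -log10 unadjusted p of limma for each of the 126 miRNAs tested, with the 3 detected miR-200 members in red. The dashed line is an unadjusted p of 0.05, which 6 miRNAs pass and no family member reaches.

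The spacing between the detected members was followed over the 4 arrays. On the scaled log2 scale the difference between miR-200c and miR-200b, which share a seed but not a cluster, stayed between 2.21 and 2.55, an SD of 0.16 over 4 arrays. The difference between miR-141 and miR-200b, which share neither, ranged over 0.46 and that between the cluster partners miR-200c and miR-141 over 0.80. These differences describe how far a pair moved together; they do not compare amounts, since probes differ in brightness for the same amount of RNA. Part of the spread followed the run. Each run holds 1 replicate of each group on its slide, so run and separate experiment cannot be told apart. For miR-200c the unscaled signal was at or below its mean on the second run, by 0.0007 and 0.37 on the log2 scale, whereas the scaled level was above it, by 0.34 and 0.22. The 75th percentile used for scaling was 246 and 208 on those arrays, against 446 and 412 on the first run.

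Over the 12 arrays, the miRNAs whose scaled log2 levels were most like those of miR-200c were its relatives miR-200b (Pearson's r of 0.999) and miR-141 (0.998), and outside the family miR-375 (0.991), miR-590-5p (0.958), miR-98 (0.923), miR-320 (0.921) and miR-151-5p (0.910). The first 2 of these 5 shared the detection call of miR-200c on 11 of 12 arrays, being undetected on replicate 2 at 24 h. The other 3 shared it on 4 to 6 arrays. These coefficients describe 12 arrays that fall into 6 groups, with most values of miR-375 and miR-590-5p at the floor. miR-200c, miR-141 and miR-200b were themselves at the floor on 8 arrays. The family was selected on this pattern, so the coefficients among its members followed from the selection and are no support.

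miR-375, known from pancreatic islets and secretory epithelia, gave a summed signal of 33.5 and 23.5 at 12 h and of 38.9 and 13.9 at 24 h in treated knockout cells. On the other 8 arrays it lay between -8.55 and 1.38. As for the miR-200 members, the treated knockout arrays were the highest 4, with no overlap. It was at least 3.44-fold higher at 12 h and at least 3.23-fold higher at 24 h than in untreated knockout cells, the latter with 1 of 2 arrays detected. miR-590-5p, an intronic miRNA, was at the floor on all 8 other arrays, and had scaled log2 levels of -4.15 and -3.16 at 12 h and of -4.24 and -4.33 at 24 h.

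miR-375 was 1 of 9 miRNAs other than the miR-200 family that are known from epithelia and were listed with earlier results of these data in view. miR-203 and miR-205, known from squamous epithelia, miR-192, miR-194 and miR-215, known from gut and kidney, and miR-182 were detected on no array. Although undetected, miR-203 had summed signals of 12.4 and 6.35 at 12 h and of 8.01 and 3.14 at 24 h in treated knockout cells, against -3.39 to 0.875 on the other 8 arrays. As for miR-200a, these were its 4 highest arrays, with no overlap. How many of all mouse miRNAs had these 4 arrays highest was not counted. The lack of overlap, here and for the family members and miR-375, is therefore given without a background. The other undetected miRNAs of the list overlapped between the groups. Besides miR-375, miR-96 was detected on 10 arrays and miR-183 on 6. miR-96 and miR-183 come, with miR-182, from a cluster known from sensory epithelia. The summed scaled signal of the 9 was 0.281 to 0.351 in knockout cells at 12 h and 0.244 to 0.272 at 24 h. It was 0.0299 to 0.0461 in untreated knockout cells and 0.0687 to 0.130 in wild-type cells over all conditions, so treated knockout cells were the highest 4 arrays. Its part in the miR-200 result was not tested.

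**Figure D5:**
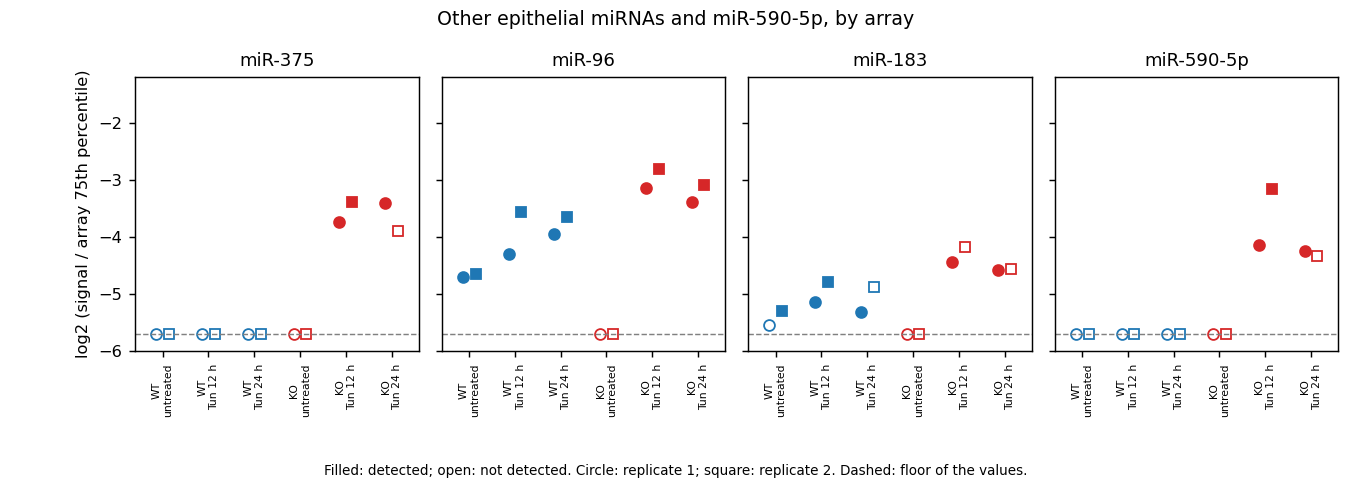
Level by array of 3 other epithelial miRNAs and of miR-590-5p, with axes, symbols and floor as in the plot of the main strands. miR-375 and miR-590-5p lie above the floor in treated knockout cells alone, miR-96 is detected on all wild-type arrays as well, and miR-183 lies between -4.58 and -4.17 in treated knockout cells, at the floor in untreated knockout cells and between -5.54 and -4.79 in wild-type cells.

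miR-96 had summed signals of 50.6 and 35.1 at 12 h and 39.1 and 24.3 at 24 h in treated knockout cells, against 11.0 and 10.9 in untreated knockout cells, where it was not detected. In wild-type cells it was detected on all arrays, at 21.7 and 21.6 untreated, 31.5 and 40.5 at 12 h, and 37.7 and 20.4 at 24 h. The unscaled signals of the genotypes overlapped under tunicamycin. On the scaled log2 scale they did not, running from -3.40 to -2.81 in treated knockout and from -4.29 to -3.56 in treated wild-type cells. miR-183 had 20.6 and 13.7, then 17.2 and 8.81, in treated knockout cells, 0.584 and 3.55 in untreated knockout cells and 8.78 to 17.4 in wild-type cells.

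In the fit over all 12 arrays, 176 miRNAs were tested, 3 of the 9 among them, with miR-375 entering only because it was detected in treated knockout cells at 12 h. Its differences are therefore given as values with no test, 2.14 at 12 h and 2.05 at 24 h in knockout cells on the log2 scale. miR-96 also passed through wild-type groups, and miR-183 passed through wild-type cells at 12 h alone. In knockout cells both were called higher at 12 h, where 21.6% of all tested miRNAs were called higher, and at 24 h, where 25.6% were. The median over all tested was 0.25 and 0.15. At 12 h miR-96 was higher by 2.74 ± 0.25 (standard error, n = 2 arrays a group, limma, adjusted p = 9.05e-05) and miR-183 by 1.40 ± 0.20 (adjusted p = 0.00107). At 24 h they were higher by 2.46 ± 0.25 and 1.14 ± 0.20 (limma, adjusted p = 0.000188 and 0.00359). Both lay at the floor in untreated knockout cells, where floored values have no spread, so the standard errors can be too small. The list was made with earlier results of these data in view, so its p-values here and below are no independent support. As bounds at 12 h, miR-96 was at least 5.18-fold higher, and miR-183 at least 2.06-fold with 1 of 2 arrays detected. Both lost the call with the normexp background (limma, adjusted p = 0.703 at 12 h and 0.678 at 24 h), with which no miRNA was called in any of these 6 comparisons (2 to 44 had an unadjusted p under 0.05 by limma). Both also lost it at both times with the software's total gene signal. miR-183 lost it in 3 of 9 other settings at 12 h and in 4 of 9 at 24 h, scaling over all mouse miRNAs among them (limma, adjusted p = 0.0507 and 0.139), and miR-96 in 2 of 10 at each time. Over the other settings the adjusted p at 12 h ran from 3.55e-05 to 0.703 for miR-96 and from 5.12e-05 to 0.728 for miR-183. Quantile normalization, which moved the median of all tested miRNAs at 12 h from 0.25 to 0.00068, called 21 miRNAs higher and 8 lower there instead of 38 and 7, miR-96 and miR-183 among those higher.

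In wild-type cells miR-96 was called higher at 12 h, by 0.75 ± 0.25 (limma, adjusted p = 0.0477), where 14.2% were called higher, and at 24 h, by 0.87 ± 0.25 (limma, adjusted p = 0.0258), where 13.6% were. The spread was pooled over all 12 arrays, the floored untreated knockout arrays among them, so these standard errors can be too small too. With only the groups compared the 12 h call was lost (limma, adjusted p = 0.137), while the 24 h call held. The 12 h call did not hold when any array other than replicate 1 of wild-type cells at 12 h was left out, the difference then running from 0.38 to 0.78 (limma, adjusted p from 0.0118 to 0.248 over all 12 arrays left out), nor in 9 of 12 other settings. The 24 h call was lost without either untreated wild-type array, without replicate 2 of wild-type cells at 24 h or without replicate 2 of untreated knockout cells (difference 0.73 to 0.91, adjusted p from 0.00774 to 0.154 over all 12) and in 6 of 12 other settings. By the software's total gene signal miR-96 was lower in treated wild-type cells, by -3.02 at 12 h and -0.97 at 24 h. miR-183 differed by 0.45 and 0.33, not called in this fit (limma, adjusted p = 0.110 and 0.211), and with the replicate number as a block it was called at 12 h (adjusted p = 0.0278). It passed the filter only through wild-type cells at 12 h, the higher group of that comparison, so its p-values at 12 h are no support. miR-375 was at the floor throughout.

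The response itself, treated minus untreated, was called larger in knockout than in wild-type cells for miR-96 and miR-183 at 12 h, where 22.2% of tested miRNAs were called higher in this sense. The median of that difference over all tested miRNAs was 0.37, with 39 called higher and 4 lower. The difference of responses was 1.99 ± 0.35 for miR-96 (limma, adjusted p = 0.00797) and 0.95 ± 0.28 for miR-183 (adjusted p = 0.0426). Each of these calls was lost or reversed in 5 of 10 other settings, scaling over all mouse miRNAs and quantile normalization among them. The floored untreated knockout values, without spread, enter these differences too, so their standard errors can be too small. The difference for miR-375, at the floor in all wild-type and untreated knockout cells, equals its values in knockout cells above and has no test. The call for miR-183 was lost on leaving out any of 9 arrays, all but replicate 2 of wild-type cells at 12 h and either array of wild-type cells at 24 h (difference 0.77 to 1.09, adjusted p from 0.0322 to 0.137 over all 12). At 24 h the median over all tested was 0.44, with 35 called higher (19.9%) and 1 lower. miR-96 differed there by 1.59 ± 0.35 (limma, adjusted p = 0.0203), a call lost in 6 of 10 other settings. It was also lost without either untreated wild-type array, without replicate 1 of wild-type cells at 24 h or without replicate 1 of untreated knockout cells (1.44 to 1.62, adjusted p from 0.0093 to 0.0701 over all 12). miR-183 at 24 h, 0.81 ± 0.28, was not called (limma, adjusted p = 0.0815). It was called with the replicate number as a block (limma, adjusted p = 0.0184), when 59 rather than 36 of the 176 miRNAs were called. The run as a block and the floor divided by 2 also gave a call for miR-183. With the normexp background the response differences at 12 h turned to a lower value in knockout cells, at -0.65 for miR-183, -0.44 for miR-375 and -0.48 for miR-96, and none was called. The median over all 176 tested miRNAs turned too, to -0.44, so the reversal was not particular to these miRNAs. In knockout cells at 24 h against 12 h, miR-96 (-0.27) was not called (limma, adjusted p = 0.854). miR-375 differed by -0.09, a value without a test, since it passed the filter there only through the 12 h group.

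The labelled cell type was checked on marker lists. Of 14 fibroblast miRNAs on the array, 10 to 12 were detected on each array, with a summed scaled signal of 55.3 to 59.2 in knockout cells at 12 h, 50.7 to 58.0 at 24 h, 47.1 to 51.8 in untreated knockout cells and 46.0 to 59.4 in wild-type cells. None of the listed miRNAs of blood (6), endothelium (2), neural tissue (4) or liver (1) was detected on any array, nor any of the 5 muscle miRNAs but miR-206. The summed scaled signal of the neural list, although undetected, was 0.0334 to 0.0627 in treated knockout cells and 0.00284 to 0.0197 on the other arrays, and its part in the miR-200 result was not tested. Of 16 strands of pluripotent cells 0 to 3 were detected an array. Per array 114 to 189 mouse miRNAs were detected. In bulk RNA a few cells with much miR-200 and many cells with little cannot be told apart. The array does not measure ATF6b, and the genotype labels were not checked.

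Untreated and treated cells were hybridized on separate slides, 1 for each condition, and slide and tunicamycin cannot be told apart. Treated wild-type cells shared the slide and both runs with treated knockout cells, and there the family was undetected. Within each treated run, miR-200c, miR-141 and miR-200b were detected in knockout cells at both times and in wild-type cells at neither.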

How the data were processed

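Members and lists were chosen with earlier results of these data known. Per the file headers and the submitters' processing notes, the deposited scanner tables hold spot intensity from Agilent Feature Extraction 10.7.1.1, and the background-subtracted intensity of 13000 non-control spots (1857 probes, 650 miRNAs) was used. 715 control spots were left out, and no other spot was saturated. The authors also deposited log2 values. They match, within 1.18e-06, the software's total gene signal on a log2 scale, unscaled and empty where a miRNA was not detected, with column medians of 5.70 to 6.87. Aligner, build and probe sequences are not given in the sources used here.

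The mean over a probe's spots left out marked outliers, and probes of a miRNA were summed. Each sum was divided by the array's 75th percentile among those 93 miRNAs that all 12 arrays detected (208 to 623). Values were floored at 0.0191 of it (log2 -5.71) before log2 was taken. Bounds use the floored values, a choice made after unfloored bounds were seen. The precision of every value is limited by the 2 arrays a group, and p-values measure only the spread between them.

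limma 3.58.1 in R 4.3.3 (lmFit, eBayes) tested each miRNA with a detection call on both arrays of some group, with Benjamini-Hochberg adjustment over all tested and a threshold of 0.05. The comparison of times in knockout cells used the 4 treated knockout arrays (2 residual and 2.24 prior degrees of freedom), and the other 6 comparisons used all 12 (6 and 1.65). The fit was tested on simulated data with the same spread for every miRNA and no floor, which does not cover groups at the floor. The 5 most similar miRNAs were named by the highest Pearson's r with miR-200c over 12 arrays. All 9 epithelial miRNAs and all family members were reported. Slide 1 holds the untreated and slide 2 the treated arrays, each in 2 runs, a run being the arrays that share a scan date in the file headers. Replicate numbers pair arrays within a slide, by shared raw-file prefixes in the labels, and deviations from group means correlated at 0.82 between the knockout groups at 12 h and 24 h. They correlated at 0.48 between the untreated groups and at -0.38 to -0.05 between slides. Alternatives in scaling, background, summary, floor, filter, blocking and arrays are given in the closing section. The planned normexp correction (offset 50) used the median spot signal in place of the mean signal.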

Additional observations from a re-analysis of the deposited data

Results flagged for a closer look

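These results concern a tunicamycin response that differed between genotypes among the epithelial miRNAs outside the miR-200 family, a list made with earlier results of these data known. The family members were not tested there, having been chosen on that contrast. By a test of the difference itself, the response at 12 h was higher in knockout than in wild-type cells by a log2 value of 1.99 for miR-96 and 0.951 for miR-183 (limma, adjusted p = 0.00797 and 0.0426, n = 2 arrays a group), each call being lost or reversed in 5 of 10 other settings. At 24 h the difference was 1.59 for miR-96 (limma, adjusted p = 0.0203), lost in 6 of 10. For both miRNAs the untreated knockout arrays were at the floor while untreated wild-type arrays were above it. Part of each difference thus lies in the untreated cells. Floored values have no spread, so the p-values can be too small. With a list made in view of earlier results, they are no independent support. In treated cells alone, the scaled log2 level of miR-96 was -3.14 and -2.81 in knockout against -4.29 and -3.56 in wild type at 12 h. For miR-375 the difference was 2.14 at 12 h and 2.05 at 24 h. All wild-type and untreated knockout arrays were at the floor and miR-375 passed the filter only through treated knockout cells, so its difference is a value without a test. With the normexp background it was -0.436 at 12 h and 0.484 at 24 h, where the median over all tested miRNAs was -0.44 and 0.37.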

How the results depend on the processing

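Between 24 h and 12 h in knockout cells, miR-141 was lower in all settings, from -0.55 to -0.23, without a call. miR-200c lay between -0.20 and -0.0035 in the 11 other settings, and between -0.342 and 0.335 on leaving out 1 array. miR-200b lay between -0.535 and 0.0243 on leaving out 1 array, and turned to 0.319 with the software's total gene signal and 0.342 with the deposited log2 values. The number of miRNAs called there was 0 on leaving out any array, 1 with the deposited values, 1 in a fit on all 12 arrays and 5 with the replicate block, none of them a family member.

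The log2 bounds stayed above 0 in every setting. Those against wild-type cells fell lowest, to 0.274 for miR-200b at 12 h with the normexp background and 0.821 at 24 h with its dimmer probe alone. Against untreated knockout cells, in the order miR-200c at 12 h and 24 h, miR-141 at 12 h and 24 h, miR-200b at 12 h and 24 h, they were 6.21, 6.2, 5.07, 4.71, 3.94 and 3.68. The normexp background gave 2.90, 2.85, 2.07, 1.81, 1.37 and 1.25. A lower floor, divided by 2, gave 6.71, 6.70, 5.57, 5.21, 4.44 and 4.18, and a floor multiplied by 2 gave 5.57, 5.57, 4.43, 4.08, 3.30 and 3.04. The dimmer probe alone gave 4.43, 4.33, 2.51, 1.78, 1.46 and 1.06, and the bound without the floor, an alternative added after seeing the data, 8.69, 8.68, 7.55, 7.19, 6.42 and 6.16. The brighter probe alone gave 5.71 and 5.74 for miR-200c and 4.80 and 4.51 for miR-141. Quantile normalization gave 6.56 for miR-200c at 24 h, 5.49 and 5.04 for miR-141 and 4.07 for miR-200b at 24 h. The total gene signal gave 5.42 and 4.87 for miR-141 and 4.61 for miR-200b at 24 h, and scaling over all mouse miRNAs 5.25 and 4.89 for miR-141. The deposited values gave 5.81 for miR-200c at 24 h, 4.85 and 4.32 for miR-141, and 4.06 for miR-200b at 24 h, and keeping outlier spots 4.68 for miR-141 at 24 h. Leaving out 1 array gave 5.85 to 6.57 and 5.84 to 6.57 for miR-200c at 12 h and 24 h, 4.70 to 5.43 and 4.35 to 5.08 for miR-141, and 3.57 to 4.30 and 3.32 to 4.04 for miR-200b.

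The number of miRNAs called moved far more. For knockout at 12 h and 24 h, wild type at 12 h and 24 h, and the response difference at 12 h and 24 h, it was 45, 54, 67, 76, 43 and 36. Scaling over all mouse miRNAs gave 12, 9, 3, 2, 4 and 4, quantile normalization 29, 25, 43, 45, 10 and 8, and the total gene signal 14, 10, 26, 25, 8 and 5. The normexp background and the deposited values gave 0 each time by limma (2 to 44 and 2 to 24 at an unadjusted p under 0.05). Without a filter, 44 were called for wild type at 12 h and 24 and 19 for the response differences, and with detection on every array compared, 29 for knockout at 12 h and 27 and 20 for the response differences. With only the groups compared, 19 were called for knockout at 24 h and 21 for the response at 24 h, which had 59 with the replicate block and 60 with the run as a block. Leaving out 1 array gave 34 to 68, 32 to 73, 38 to 69, 48 to 81, 22 to 52 and 13 to 50. miR-96 reversed in wild-type cells with the total gene signal (-3.02 at 12 h, -0.973 at 24 h) and the deposited values (-2.85 and -1.18), as did miR-183 at 24 h with the total gene signal (-1.06). With the normexp background the response difference at 12 h reversed for miR-183 (-0.648), miR-375 (-0.436) and miR-96 (-0.482). The median over all tested miRNAs reversed with them, from 0.37 to -0.44. The cause of these shifts was not tested. miR-183 was called with the replicate block for wild type at 12 h, the group through which alone it passed the filter, so that call is no support. For the response at 24 h it was called with that block, with the run as a block and with the floor divided by 2. In these comparisons the replicate block changed no other call of miR-96 or miR-183.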
